A study of Mus musculus with 16 samples.

Results

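The regions described here are H3K4me3 peaks of the adult mouse hippocampus that were weaker in mice lacking Kdm5c. They were selected on the deposited counts of 4 libraries, as regions with a mean of at least 8 CPM (the region's share of the library's counts over all regions, times 1e6) in wild-type mice under standard conditions and a KO to wild-type ratio of mean CPM of at most 0.8. The rule chose 144 of 35996 regions, and 16556 other regions reached 8 CPM in the same wild-type libraries without meeting the ratio. H3K4me3 is the trimethyl mark on lysine 4 of histone H3 that sits at the starts of active and poised genes. Kdm5c is an X-linked demethylase that removes methyl groups from this residue, so a peak that weakens without it runs opposite to the reaction the enzyme catalyses. Loss of the human gene causes X-linked intellectual disability.

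Chromatin was immunoprecipitated from hippocampi of adult male mice aged 2 to 4 months, and each library was a pool of 2 mice. The groups, with 2 libraries each, were Kdm5c KO (KO_HC) and wild type (wt_HC) under standard conditions, Kdm5c KO (KO_NE) and wild type (wt_NE) after 1 h of exploring a box they had not seen before, and the Kdm5c line labelled ifKO with its littermate controls (ifwt) in the basal state. The KO and wild-type mice had a mixed C57/129 F1 background, while the ifKO and ifwt mice were C57BL/6J. The construction of the ifKO line was not stated in the material used here. KO_HC and wt_HC chose the regions, so their values are given only as a description, and every test rests on KO_NE against wt_NE and on ifKO against ifwt. Library totals over the regions ranged from 18188843 to 30449302 counts, and a floor of 3 counts stood for 0.0985 to 0.165 CPM. The Kdm5c gene start at chrX:152232907-152234889 had 61.9 and 62.5 CPM in KO_NE, against 62.7 and 71.2 CPM in wt_NE, and 51.6 and 58.3 CPM in ifKO, against 55.7 and 59.9 CPM in ifwt; the position of the deletion was not stated, so this does not check the labels. In tissue chromatin, fewer cells carrying the mark and less mark per cell cannot be told apart.

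Among the 12 gene-associated regions with the largest called falls in KO_NE, 4 hold an annotated gene start with a promoter sequence. These 4 sequences, which differ widely in CG content, are shown. They come from RefSeq (build GRCm38.p6), run from 250 bases before to 50 bases after the start, and have each CG dinucleotide in capitals. All 4 are on the minus strand. Egfl6 encodes a secreted protein with EGF-like repeats (chrX:166585667-166585966). Pdyn encodes prodynorphin, the precursor of the dynorphin opioid peptides (chr2:129699889-129700188). Gm52280 is a predicted gene (chr17:14280462-14280761) whose start lies in the region at an end of Smoc2, which may be the Smoc2 start. Gm13710 is a predicted long noncoding RNA gene (chr2:84506824-84507123).
Egfl6: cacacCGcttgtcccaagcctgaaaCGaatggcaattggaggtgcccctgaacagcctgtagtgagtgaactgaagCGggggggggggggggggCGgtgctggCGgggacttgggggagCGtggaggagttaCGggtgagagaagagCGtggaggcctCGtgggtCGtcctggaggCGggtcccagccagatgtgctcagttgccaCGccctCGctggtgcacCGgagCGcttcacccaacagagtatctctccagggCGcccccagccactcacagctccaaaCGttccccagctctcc
Pdyn: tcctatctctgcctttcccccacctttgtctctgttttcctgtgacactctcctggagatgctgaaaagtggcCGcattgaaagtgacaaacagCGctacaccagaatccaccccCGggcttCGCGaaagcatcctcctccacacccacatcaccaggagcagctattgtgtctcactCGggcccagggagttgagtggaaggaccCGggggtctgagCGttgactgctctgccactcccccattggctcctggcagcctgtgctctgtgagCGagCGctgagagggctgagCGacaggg
Gm52280: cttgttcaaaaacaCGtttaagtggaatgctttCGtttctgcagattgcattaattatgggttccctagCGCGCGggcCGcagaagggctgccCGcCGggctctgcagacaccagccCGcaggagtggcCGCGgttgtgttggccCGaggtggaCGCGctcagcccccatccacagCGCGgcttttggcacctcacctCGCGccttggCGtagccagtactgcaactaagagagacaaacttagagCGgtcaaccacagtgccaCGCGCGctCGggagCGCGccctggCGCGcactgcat
Gm13710: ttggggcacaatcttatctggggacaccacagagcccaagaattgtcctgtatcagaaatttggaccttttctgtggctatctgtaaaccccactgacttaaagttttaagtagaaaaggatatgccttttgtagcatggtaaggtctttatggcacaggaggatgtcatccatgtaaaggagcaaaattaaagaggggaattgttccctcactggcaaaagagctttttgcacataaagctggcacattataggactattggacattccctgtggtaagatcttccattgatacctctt
The Gm52280 window holds 28 CG dinucleotides and the Egfl6 window 17, whereas the Pdyn window holds 11 and the Gm13710 window 0. Across all 55 annotated starts inside the weakened regions the median was 11 CG dinucleotides per 300 bases, against 22 over 13500 starts in the other regions of at least 8 CPM and 13 over 843 starts in the others with 8 to 16 CPM. The ratio of observed to expected CG reached 0.6 in 36.4% of the starts in weakened regions, in 76.1% of the starts in the other regions of at least 8 CPM, and in 43.4% of those with 8 to 16 CPM. The letters TATAAA, searched on both strands, were present in 1 of the 55 windows (1.82%), a count too small to compare closely. The share was 5.89% in the other regions of at least 8 CPM, 8.66% in those with 8 to 16 CPM and 13.6% of all 32851 promoter windows.

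Most weakened regions were small peaks. Their median level in wt_HC was 15.6 CPM, against 50.5 CPM in the other regions of at least 8 CPM, and 72 of the 144 (50%) lay under 16 CPM, against 15.7% of the others. An annotated gene start lay within 2 kb of 64 regions (44.4%, against 70.5% of the others). Each region was assigned to 1 gene, coding genes before noncoding ones. To a gene start 61 were assigned, 17 lay inside genes, and 31 (21.5%, against 3.69%) lay between genes. The other 35 were assigned to an end of a gene whose strand is not in the annotation, so that this end may be its start. In the selecting libraries both KO_HC values were below both wt_HC values at 138 of the 144. The lowest ratios with a gene were 0.483 inside the predicted noncoding RNA gene Gm35479, 0.591 at Mgp, the matrix Gla protein that inhibits calcification, and 0.594 at Tbx18, a T-box factor of mural cells; Cyp2j12, Carmil1, Mylk, Egfl6 and Aopep followed with 0.614 to 0.644. Just inside the ratio threshold lay regions at chr9:3024391-3024667 (0.7998) and chr4:146270134-146271239 (0.7988), and just outside it chr9:3023458-3023759 (0.8003), Ppic (0.8008) and Egfl7 (0.8013). Just inside the level threshold lay Alx4, Ehd2 and Gm51441 with 8.06, 8.07 and 8.13 CPM, and just outside it Tbx15, Emx2os and Snai1 with 7.93, 7.93 and 7.91 CPM.

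The 144 regions fell into 2 kinds. The first is a block of 35 regions whose levels moved as a single signal over the 12 libraries: 18 lie side by side near the start of the chromosome 9 sequence, between chr9:3000008-3002452 and chr9:3036836-3038316, and 17 elsewhere tracked their mean profile with a correlation of at least 0.981, whereas the next region reached 0.929. The block was defined after the values were seen. It includes 4 adjacent regions of chromosome 2 from chr2:98662118-98663055 to chr2:98666198-98667456. It also includes a region at an end of the predicted gene Gm33838, a region at the microRNA gene Mir101c, and a region inside Chl1, a neural adhesion molecule gene. These 3 were the strongest members with a gene, and Gm33838 had 994.9 and 1203 CPM in KO_NE, against 1096 and 1297 CPM in wt_NE. The block also holds the strongest region of the whole table, where 7944 and 9689 CPM were counted in KO_NE, against 8748 and 10500 CPM in wt_NE. Of the 35, 27 lie between genes, and whether their reads also match other places in the genome was not tested. The block took 1.84% and 1.83% of all counts in KO_HC, against 2.08% and 2.70% in wt_HC. It took 1.96% and 2.39% in KO_NE, against 2.16% and 2.58% in wt_NE, and 8.87% and 5.48% in ifKO, against 4.81% and 6.69% in ifwt. The groups overlapped outside the selection. Against the wt_HC library 1 alone only 2 of the 35 had a ratio of at most 0.8, and against library 2 alone all 35 did, so their selection rests on that library. In edgeR none of the 35 was called in KO_NE against wt_NE (median log2 change -0.19, 0 with an unadjusted p under 0.05) or in ifKO against ifwt (median 0.32, all 35 above 0, 32 with an unadjusted p under 0.05 and a higher value in ifKO). The 35 regions are therefore close to a single measurement and are kept apart below.

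**Figure D1:**
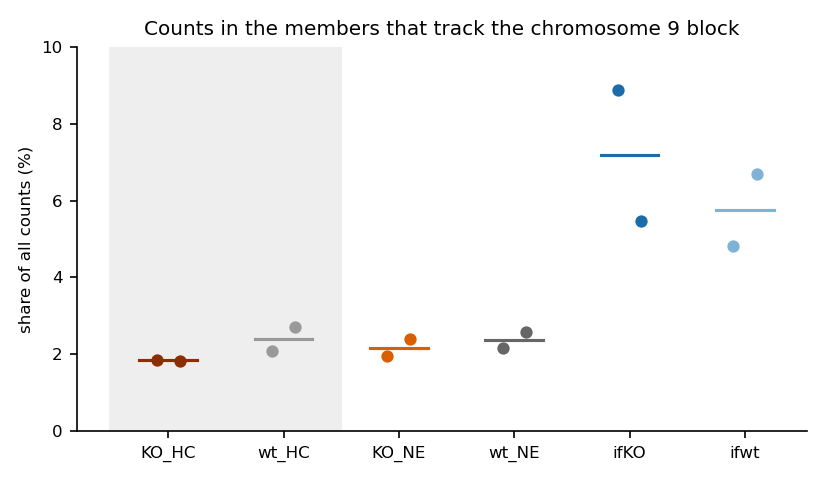
Share of each library's counts (percent, vertical axis) in the 35 regions that track the chromosome 9 block, for the 6 groups on the horizontal axis. Points are libraries and lines are means of 2; the grey band marks the groups that chose the regions. The ifKO and ifwt libraries lie between 4.81% and 8.87% and the other 8 libraries between 1.83% and 2.70%.

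The other 109 regions were mostly gene-associated: 60 were assigned to a gene start, 33 to a gene end, 12 lie inside a gene and 4 between genes. The 4 are 3.67% of the 109, against 3.69% of the other regions of at least 8 CPM. An annotated gene start lay within 2 kb of 63 of the 109 (57.8%, against 70.5%). Relative to the wt_HC library 1 alone 82 had a ratio of at most 0.8, relative to library 2 alone 85 did, and 58 did against each. They spread over every chromosome except Y, with 13 on chromosome 9, 10 each on chromosomes 2 and 13, 9 on chromosome 18 and 4 on X.

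After novelty, a large part of these regions was again lower in KO mice. In edgeR's quasi-likelihood test over 35863 regions (Benjamini-Hochberg adjusted p under 0.05), 39 of the 144 were lower in KO_NE, all of them outside the chromosome 9 block, and 0 were higher. Over all regions 6.38% were called lower and 10.3% higher, and of the 16556 other regions of at least 8 CPM 12.9% were called lower and 7.73% higher. The count of 0 higher held at an unadjusted p under 0.05 and in DESeq2. The median log2 change was -0.25 over the 144 regions and -0.29 over the 109 outside the block. It was -0.07 over the other regions of at least 8 CPM and -0.0015 over all regions. Below 0 were 134 of the 144, of which 34 lie in the block. Outside the block 100 of the 109 (91.7%) were below 0, against 67.6% of the other regions of at least 8 CPM. Both KO_NE libraries were below both wt_NE libraries at 68 of the 144 (47.2%), against 35.9% of the other regions of at least 8 CPM and 22.4% of all regions. Scaling moves the balance of the calls over all regions: 61.8% of them were higher with the main scaling, 84.4% when scaled to file totals, and 73.2% when a curve over region strength set the offsets. Of the 144, 27 were called lower when scaled to file totals.

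The calls at 5 of the 39 held in all 16 other fits (Gm35479, Cxcl12, Smoc2, Myo5b and Egfl6), and the other 34 were lost in at least 1. The libraries that mattered most were wt_NE library 2, without which 10 of the 144 were called lower, and KO_NE library 1, without which 13 were; without ifKO library 2 the count was 60, and with only the 4 novelty libraries in the fit 84.

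Myo5b encodes a class V myosin motor of recycling endosomes. The region at an end of this gene, which may be its start, was lower in both lines (chr18:74442060-74443369). It had 20.8 and 18.8 CPM in KO_NE, against 30.7 and 30.9 CPM in wt_NE, and 14.9 and 16.4 CPM in ifKO, against 24.4 and 22.4 CPM in ifwt. The groups did not overlap in either comparison. The log2 change was -0.69 ± 0.09 (SE) after novelty, with an edgeR adjusted p of 9.78e-07, and -0.58 ± 0.10 in the ifKO line, with an edgeR adjusted p of 0.000182. Over the other processing settings tried its adjusted p ranged from 1.76e-13 to 0.000586 in KO_NE and from 9.66e-05 to 0.0104 in ifKO. It was the only one of the 144 called in ifKO.

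Inside Gm35479 the region at chr2:147435281-147437257 had 6.11 and 4.81 CPM in KO_NE, against 9.28 and 12.6 CPM in wt_NE. Both KO_NE libraries were lower, and the log2 change of -1.05 ± 0.17 (edgeR adjusted p = 1.54e-05) was the largest fall among the 144. In the ifKO line it had 8.58 and 7.04 CPM in ifKO, against 7.69 and 8.61 CPM in ifwt, and these groups overlapped.

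Egfl6 and Smoc2, which both encode secreted proteins, were lower in KO_NE. Egfl6 had 4.99 and 4.39 CPM in KO_NE, against 8.72 and 7.25 CPM in wt_NE (log2 change -0.81 ± 0.16, edgeR adjusted p = 0.000484). Smoc2, a calcium-binding matrix protein gene, had 26.2 and 24.9 CPM in KO_NE, against 35.6 and 40.6 CPM in wt_NE (log2 change -0.63 ± 0.10, edgeR adjusted p = 6.72e-06). The ranges did not overlap in either case. Both ifKO libraries were also below both ifwt libraries at Egfl6 and Smoc2, but neither was called. Egfl6 had 6.15 and 6.65 CPM in ifKO, against 7.41 and 7.52 CPM in ifwt. Smoc2 had 24.6 and 24.5 CPM in ifKO, against 32.1 and 25.1 CPM in ifwt. A region inside Mylk, the gene of myosin light chain kinase, fell by 0.73 on the log2 scale to 4.20 and 5.73 CPM in KO_NE, against 8.29 and 7.52 CPM in wt_NE. Mgp had 4.01 and 5.39 CPM in KO_NE, against 7.00 and 6.59 CPM in wt_NE, and its call (edgeR adjusted p = 0.0412) was lost in 6 of the 16 other fits: with file totals, in DESeq2, without KO_NE library 1, without either wt_NE library and without ifwt library 2 (adjusted p up to 0.404). Cxcl12, which encodes a chemokine made by vessel and meningeal cells, had 47.2 and 47.4 CPM in KO_NE, against 61.2 and 62.0 CPM in wt_NE (log2 change -0.43 ± 0.07, edgeR adjusted p = 7.31e-06). In the ifKO line Cxcl12 had 48.4 and 53.0 CPM in ifKO, against 59.9 and 54.8 CPM in ifwt, without overlap and without a call. Cdh4, the R-cadherin gene, and Kif26b, a kinesin family gene, fell by 0.63 and 0.56 on the log2 scale. Gm40352, Gm13710 and Zfp991 fell by 0.71, 0.56 and 0.64. Gm13710 had 9.18 and 9.46 CPM in ifKO, against 11.6 and 12.3 CPM in ifwt, also apart and not called. At Mylk, Mgp, Cdh4, Kif26b, Gm40352 and Zfp991 the ifKO and ifwt libraries overlapped. The calls at Mylk and Zfp991 were lost without KO_NE library 1 (edgeR adjusted p = 0.150 and 0.104), those at Kif26b and Gm40352 without wt_NE library 2 (0.0569 and 0.118), that at Gm40352 also in DESeq2 (0.0839), that at Cdh4 without KO_NE library 1 or wt_NE library 1 (up to 0.0665), and that at Gm13710 without KO_NE library 2 or wt_NE library 1 (up to 0.201).

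Gad1, Prox1 and Pdyn, which neurons express, were called lower as well, while the neuron marker lists as a whole moved in both directions. Gad1, which encodes the GABA-synthesizing enzyme GAD67, had 32.7 and 29.2 CPM in KO_NE, against 38.4 and 45.3 CPM in wt_NE (chr2:70562211-70564342, log2 change -0.49 ± 0.09, edgeR adjusted p = 0.000246). Prox1, the homeobox factor of dentate granule cells and of some interneurons, had 77.6 and 74.8 CPM in KO_NE, against 87.3 and 100.9 CPM in wt_NE (log2 change -0.36 ± 0.08, edgeR adjusted p = 0.00128). Pdyn had 6.83 and 6.27 CPM in KO_NE, against 8.55 and 10.4 CPM in wt_NE (log2 change -0.59 ± 0.16, edgeR adjusted p = 0.0104). No KO_NE library reached a wt_NE library at these 3 genes, but leaving out wt_NE library 2 ended each of the calls (edgeR adjusted p = 0.0879 for Gad1, 0.177 for Prox1 and 0.285 for Pdyn). Prox1 was also not called in DESeq2, and Pdyn was not called without either KO_NE library. Over the strongest region of each listed gene, the pyramidal and granule neuron list had 3 of 18 regions lower in KO_NE (Prox1, Emx1 and Bcl11b) and 2 higher (Neurod6 and Fezf2), with a median of -0.011 on the log2 scale. The interneuron list had 3 of 19 lower (Gad1, Adarb2 and Prox1) and 1 higher (Cck), with a median of -0.016, against -0.0015 over all regions.

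The genes with zinc-finger names were grouped after their values were seen. All 6 Zfp genes with a weakened region (Zfp52, Zfp456, Zfp459, Zfp677, Zfp820 and Zfp991) were below 0, from -0.21 to -0.64 on the log2 scale. Of all weakened regions outside the block 91.7% were below 0. In KO_NE 4 of the 6 were called lower, against 35.8% of all weakened regions outside the block. Of the 400 Zfp regions of at least 8 CPM that were not weakened, 36 (9%) were called lower, with a median of -0.09. Zfp genes in general were therefore not called lower more often than the 12.9% of other regions of at least 8 CPM. The calls at Zfp52, Zfp456, Zfp459 and Zfp991 were each lost without KO_NE library 1 (edgeR adjusted p = 0.092, 0.0823, 0.190 and 0.104), and those at Zfp52, Zfp456 and Zfp459 also without wt_NE library 2. Zfp459 was not called with file totals or in DESeq2 either. Zfp456 and Zfp459 neighbour each other on chromosome 13, Zfp52, Zfp677 and Zfp820 lie close together on chromosome 17, and Zfp991 lies on chromosome 4 near 3 further weakened regions that have no gene or a pseudogene. Whether reads of these neighbouring genes also match one another was not tested, so the counts of single genes are uncertain.

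**Figure D2:**
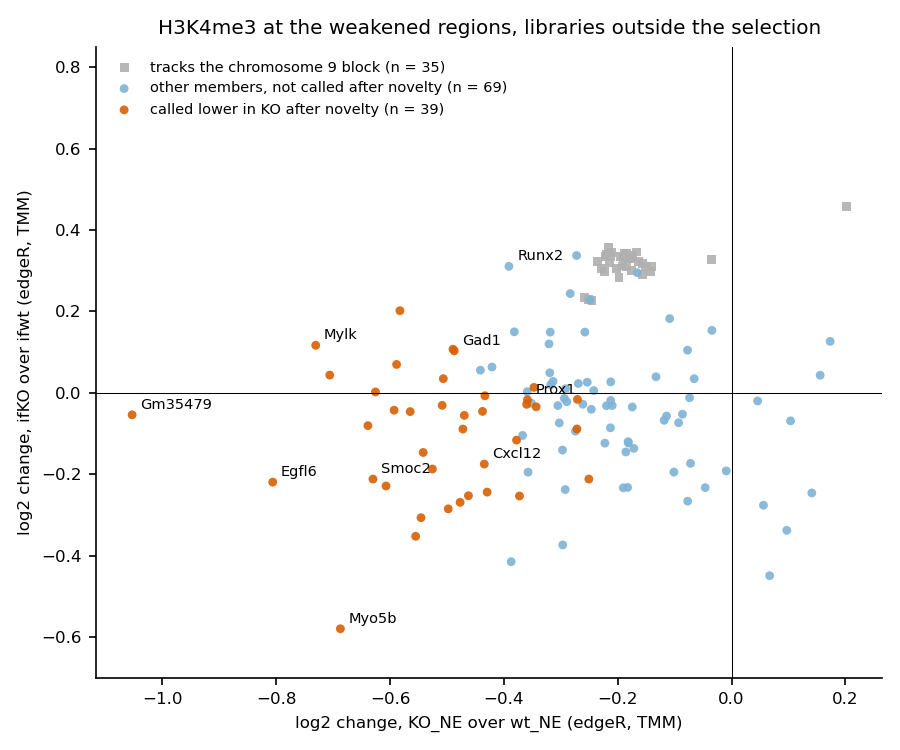
Log2 change in KO_NE over wt_NE (horizontal axis) and in ifKO over ifwt (vertical axis) for 143 of the 144 regions, from the edgeR fit. Most of the 109 regions outside the block lie left of 0, whereas Myo5b alone among the called regions lies far below 0 on the vertical axis.

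**Figure D3:**
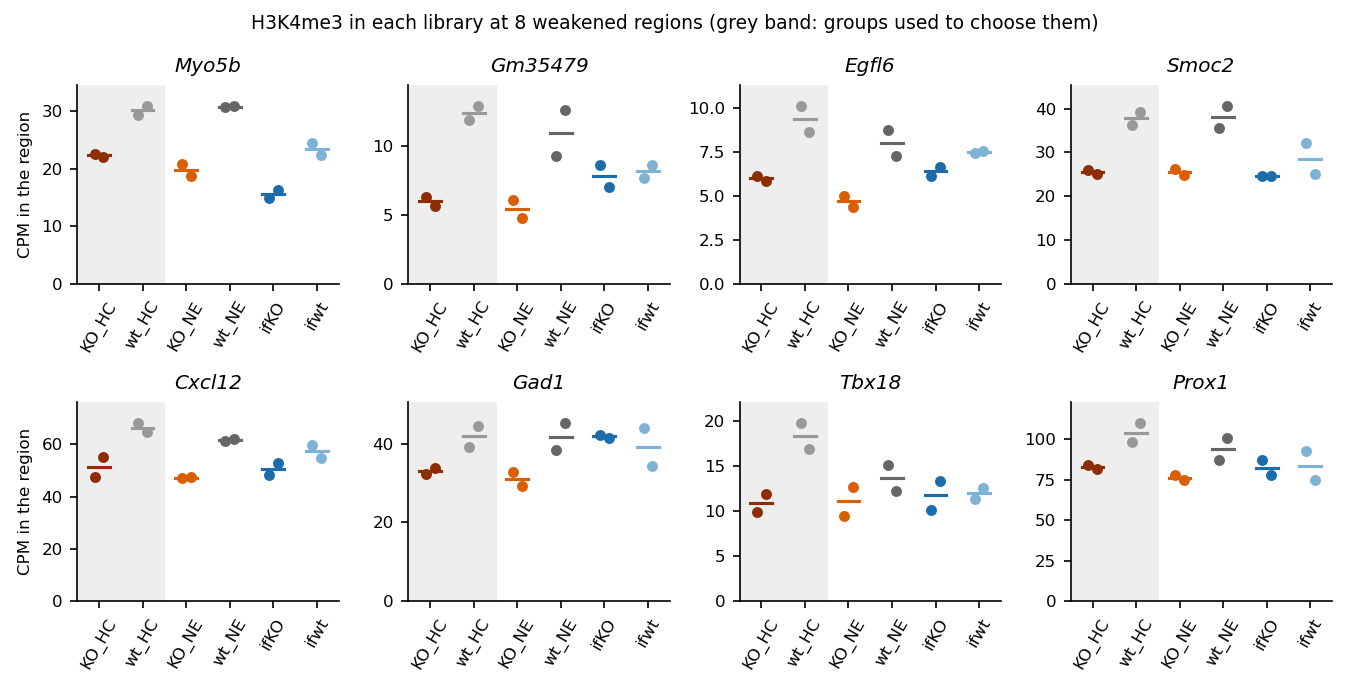
CPM (vertical axis) in each library of the 6 groups (horizontal axis) at 8 of the regions; points are libraries, lines are means of 2, and the grey band marks the groups that chose the regions. At Myo5b the KO_NE and ifKO libraries lie below wt_NE and ifwt, and at Gad1 and Prox1 both KO_NE libraries lie below both wt_NE libraries while ifKO and ifwt overlap.

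In the ifKO line the 109 regions outside the block showed little change. Of the 144, 1 was called lower in ifKO (Myo5b) and 0 higher, against 0.558% and 4.52% of all regions. DESeq2 gave the same counts. The 0 higher rested on the library set: without ifKO library 2, 35 regions were called higher in ifKO, and without ifwt library 2, 31 were, all of them in the block. At an unadjusted p under 0.05 10 were lower and 32 higher, all 32 in the block. The median log2 change of the 109 was -0.04, against -0.03 over the other regions of at least 8 CPM. Both ifKO libraries lay below both ifwt libraries at 29 of the 109 (26.6%) and at 0 of the 35 in the block. The share was 29.3% in the other regions of at least 8 CPM and 20.4% in all regions. The difference between the effects was tested in the same fit. It was called at 3 of the 144, against 0.53% of all regions in either direction. For Gad1 the effect in KO_NE minus that in ifKO was -0.59 ± 0.13 (edgeR adjusted p = 0.0225), with 42.4 and 41.5 CPM in ifKO, against 44.1 and 34.3 CPM in ifwt. For the region in Gm35479 the difference was -0.999 ± 0.24 (edgeR adjusted p = 0.0417). The region at chr8:20557365-20558209 lies between genes and was the nearest to the block, with a correlation of 0.929 to its profile. There the difference was -0.785 ± 0.19 (edgeR adjusted p = 0.0460). None of the 3 kept this call in all 15 other fits; 0 regions were called in DESeq2 and without KO_NE library 2, wt_NE library 2 or ifwt library 2, and 40 without ifKO library 2, 34 of them in the block. At the other 141 regions the difference was not called, which does not show that the effects were alike. The lines also differ in strain background and in novelty exposure, which cannot be told apart here.

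The level itself differed between the control groups. At 94 of the 109 regions outside the block ifwt was lower than wt_NE, with a median log2 ratio of mean CPM of -0.23, against 65.3% of the other regions of at least 8 CPM and a median of -0.06. The 109 were chosen for a high level in wt_HC relative to KO_HC, and wt_HC shares its background with wt_NE and not with ifwt. The other regions met only the level threshold. How much of the difference comes from this choice was not tested. Tbx18 had 11.4 and 12.6 CPM in ifwt, against 15.1 and 12.2 CPM in wt_NE, and these groups overlapped. Foxc1, a forkhead factor of the meninges, had 16.4 and 20.3 CPM in ifwt, against 30.0 and 25.2 CPM in wt_NE, without overlap.

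The fall in KO_NE followed the ratio in the selecting libraries over its whole range. With the tracking regions left out, the 16 regions with a ratio of at most 0.7 had a median log2 change of -0.38 in KO_NE, and the 93 with a ratio of 0.7 to 0.8 one of -0.27. The 1214 regions with a ratio of 0.8 to 0.9 had -0.18 and the 7932 with 0.9 to 1.0 had -0.12. The share called lower in KO_NE was 43.8% and 34.4% in the 2 bins of weakened regions, against 32.7% and 20.6% in the next 2, which have higher levels and so more counts. Among regions of 8 to 16 CPM alone, 5 of 11 (45.5%) and 17 of 56 (30.4%) of the weakened regions were called lower, against 20 of 248 (8.06%) with a ratio of 0.8 to 0.9 and 14 of 496 (2.82%) with 0.9 to 1.0. In the ifKO line the medians of the same 4 bins were -0.03, -0.05, -0.09 and -0.07.

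**Figure D4:**
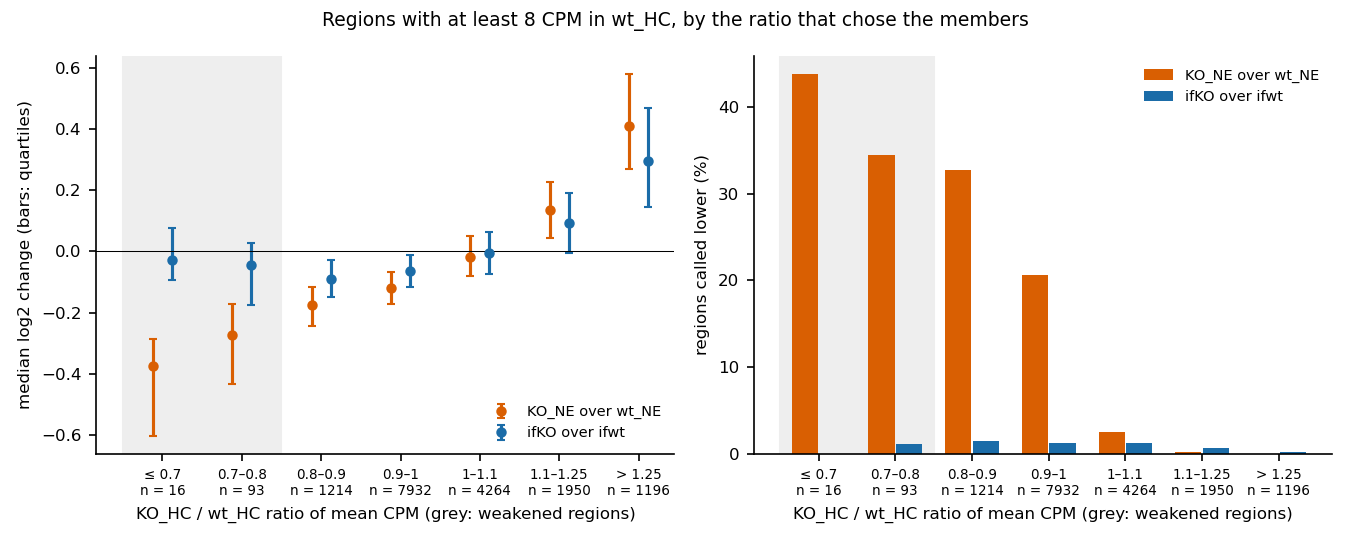
Regions of at least 8 CPM in wt_HC, without the tracking members, in bins of the KO_HC to wt_HC ratio (horizontal axis; the grey band marks the weakened regions). The left panel shows the median log2 change with quartiles and the right panel the share called lower, for KO_NE over wt_NE and ifKO over ifwt; the KO_NE median runs from -0.38 in the lowest bin to 0.41 in the highest, and the ifKO median from -0.03 to 0.30.

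Cell type marker lists were read for the weakened regions and for the whole lists. Only a region of at least 8 CPM in wt_HC could be chosen. By the strongest region of each measured gene, 14 of 34 fibroblast, 9 of 17 pericyte and smooth muscle and 20 of 20 endothelial regions reached it. The same held for 12 of 13 astrocyte, 2 of 16 microglia and 6 of 8 choroid plexus regions. A total of 12 of the 144 regions belong to a gene of a cell type list, and 9 of these 12 to endothelial, mural or fibroblast genes. The fibroblast list had 5 of its 36 genes in weakened regions (Alx4, Foxc1, Foxc2, Tbx18 and Zic1), the pericyte and smooth muscle list 2 of 18 (Mcam and Tbx18), and the endothelial list 3 of 20 (Cdh5, Tie1 and Vwf). The astrocyte, microglia and choroid plexus lists had 0, but few microglia regions reached the level needed to be chosen. Of the 9 regions only Mcam, an adhesion molecule of mural cells, was called lower in KO_NE, with 14.7 and 15.9 CPM in KO_NE, against 18.6 and 19.7 CPM in wt_NE, and this call was lost without KO_NE library 1 or wt_NE library 2 (edgeR adjusted p up to 0.210); the 9 ranged from -0.38 to 0.10 on the log2 scale with a median of -0.27, and none was called in ifKO. Tbx18 had 9.52 and 12.7 CPM in KO_NE, against 15.1 and 12.2 CPM in wt_NE, and Vwf, the von Willebrand factor gene, 6.27 and 9.40 CPM, against 7.22 and 6.77 CPM; both pairs of groups overlapped.

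Over the strongest region of each listed gene, the endothelial list had 4 of 20 regions lower and 1 higher in KO_NE (median -0.14), the pericyte and smooth muscle list 3 of 17 lower and 0 higher (median -0.15), and the fibroblast list 3 of 34 lower and 2 higher (median -0.17). Over all regions 6.38% were called lower and 10.3% higher, with a median of -0.0015. Of the other regions of at least 8 CPM, 12.9% were called lower and 7.73% higher, with a median of -0.07. Summed over each of these lists, the levels were 558.7 and 619.8 CPM in KO_NE, against 613.2 and 594.3 CPM in wt_NE for the endothelial list, 198.8 and 219.1 CPM, against 234.1 and 227.8 CPM for the pericyte and smooth muscle list, and 260.5 and 289.8 CPM, against 304.0 and 253.8 CPM for the fibroblast list. The groups were apart for the pericyte and smooth muscle list and overlapped for the other 2. Without the weakened regions at Mcam and Tbx18 that list had 174.6 and 190.5 CPM in KO_NE, against 200.4 and 195.9 CPM in wt_NE, and 167.7 and 170.9 CPM in ifKO, against 171.7 and 177.9 CPM in ifwt, and neither pair of groups overlapped. In the libraries that chose the regions it had 184.8 and 202.3 CPM in KO_HC, against 209.5 and 200.2 CPM in wt_HC, which overlap. No listed region was at 0 in any library. Whether the amount of these cells had a part in the weakened regions was not tested. Of the developmental transcription factors, 2 of 42 were in weakened regions, Runx2 and Gata6, and neither was called. The lists of matrix genes, H3K4 methylation enzymes, ribosomal proteins, activity-induced genes and synaptic transmission genes had 0. In KO_NE, 8 of 21 H3K4 methylation enzyme regions were called lower and 1 higher (median -0.16). Of 46 ribosomal protein regions 4 were lower and 0 higher (median -0.10). The matrix list had 1 of 38 lower and 2 higher (median -0.06), and the activity-induced list 2 of 38 and 1 (median 0.0014). The synaptic list had 2 of 34 lower and 1 higher (median -0.03).

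Some genes that hold a weakened region also held a region that was stronger in the mutants. Of the 176 other regions within 52 such genes, 33 (18.8%) in 20 genes were called higher in KO_NE and 4 were called lower. They differ in kind: 28 were assigned to a gene start, where 2 (7.14%) were higher, against 7.66% of 14612 such regions that were not weakened, and 36 to a gene end, where 7 (19.4%) were higher, against 9.22% of 5312. The other 112 lay inside a gene and had a median of 2.00 CPM in wt_NE; 24 of them (21.4%) were higher, against 14.01% of 9867 such regions with a median of 1.58 CPM. These shares were not tested against each other. In the ifKO line 15 of the 176 were called higher and 0 lower, and 13 of the 15 were also called higher in KO_NE; inside genes 11 of 112 (9.82%) were higher in ifKO, against 5.79% of 9867. At Myo5b a region at chr18:74714702-74717480 had 43.1 and 42.6 CPM in KO_NE, against 18.9 and 22.5 CPM in wt_NE, and 38.6 and 40.4 CPM in ifKO, against 28.8 and 27.3 CPM in ifwt. It rose by 0.99 ± 0.09 and 0.50 ± 0.09 on the log2 scale (edgeR adjusted p = 6.51e-11 and 0.000148), while the weakened region of the same gene fell in both lines. Itga11, which encodes a collagen-binding integrin subunit, fell at its start by 0.51 in KO_NE (edgeR adjusted p = 0.00373), whereas an internal region at chr9:62763811-62765511 had 7.55 and 9.99 CPM in KO_NE, against 1.20 and 1.51 CPM in wt_NE, and 9.27 and 7.92 CPM in ifKO, against 1.69 and 1.43 CPM in ifwt. Gng7, a G protein gamma subunit gene, fell at its start by 0.37 and rose by 1.54 at chr10:80999782-81003021, where it also rose by 1.90 in ifKO. At Islr2 the region at chr9:58197278-58199002 rose by 1.19 in KO_NE and 1.33 in ifKO, next to the start region, which fell by 0.27 in KO_NE. Regions in Aopep (chr13:63315754-63317868) and Pllp (chr8:94676886-94678789) rose by 2.69 and 2.19 in KO_NE and were not called in ifKO. Without wt_NE library 2 the falls at the starts of Itga11, Gng7 and Islr2 were not called (edgeR adjusted p = 0.107, 0.135 and 0.293), nor was that at Itga11 without KO_NE library 2, at Gng7 without KO_NE library 1 or at Islr2 without either KO_NE library.

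**Figure D5:**
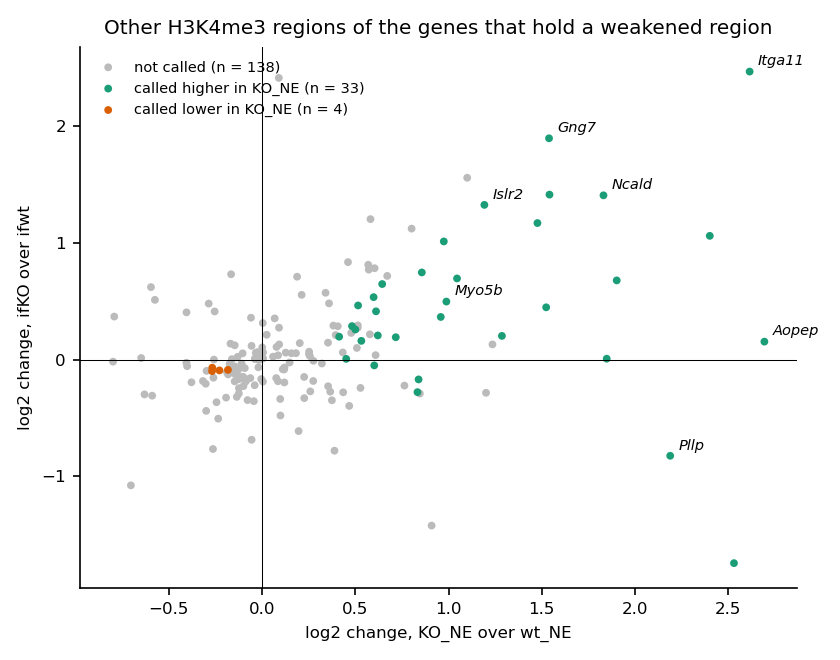
Log2 change in KO_NE over wt_NE (horizontal axis) and in ifKO over ifwt (vertical axis) at the other H3K4me3 regions of the genes that hold a weakened region; each point is a region, coloured by its call in KO_NE. The 33 regions called higher reach 2.69 on the horizontal axis (Aopep), and Itga11 lies at 2.61 and 2.47.

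The Kdm5C files listed few of the weakened regions. The deposited Kdm5C and H3K4me1 files list 2321 regions, and these overlapped 1 of the 144 weakened regions (0.694%) by at least 1 base, against 2294 of the 16556 other regions of at least 8 CPM (13.9%). The exception was the start of Cfl2, which encodes the actin-severing protein cofilin-2. There the Kdm5C signal was 196 covered bases in the KO library, against 853 in the wild-type library, and the H3K4me1 signal 128, against 57. Over all listed regions the median Kdm5C signal was 281 covered bases in KO, against 1346 in wild type. With 1 library each these are values without a test, and a region not listed in those files is not shown to lack Kdm5C. Outside the chromosome 9 block the overlap was 1 of 109 weakened regions (0.917%). Most weakened regions were smaller peaks than the others, and the overlap at matched peak levels was not tested.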

How the data were processed

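H3K4me3 was measured in 12 hippocampal libraries. The authors deposited 1 raw count per region and library over 36005 regions common to all libraries, per the file headers; 9 repeated regions were removed. For H3K4me1 and Kdm5C the authors deposited 1 signal value per region, which from the values behaves as summed base coverage. The submitters' processing notes name mm10 (GRCm38) and the tools MACS2 2.1.0, Bowtie2 2.2.9, featureCounts, DESeq2 1.10.0, SAMtools 1.3.1 and R 3.3. The region definition and the handling of reads with several matches were not stated in the material used here. Coordinates are as the files give them. Replicates were pools of 2 mice, so p-values measure the spread between these pools.

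CPM was computed from file totals. Counts of the 8 libraries outside the selection were fitted with edgeR 4.0.16 (quasi-likelihood F test, 1 mean per group, TMM scaling, filterByExpr, which dropped 133 regions) and adjusted by Benjamini-Hochberg over 35863 regions; the code was tested on simulated data. DESeq2 1.42.0 and other scalings, filters, library sets and member rules were alternatives. Regions were assigned to genes with RefSeq tables (GRCm38.p6) within 2 kb of a start, or of either end for genes without a promoter entry. Values are edgeR log2 changes unless CPM is named.

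The regions and gene lists were chosen with earlier results of these data known. Named regions with a gene are the 8 with the lowest ratio, the 3 strongest, up to 12 with the largest called and non-overlapping fall in KO_NE, those called in ifKO, in both lines or for the difference, up to 3 per gene list, and those next to a threshold; others named in the text, such as Cxcl12, Itga11, Gng7, Islr2, Aopep, Pllp, Cfl2 and the Zfp genes, were chosen after their values were seen. A few members are not reported here.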

Additional observations from a re-analysis of the deposited data

Results flagged for a closer look

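At 3 of the 144 weakened regions the change in KO_NE against wt_NE differed from the change in ifKO against ifwt by the test of the difference itself. Inside Gm35479 the difference was -0.999 on the log2 scale, with a log2 change of -1.05 in KO_NE and -0.05 in ifKO. At chr8:20557365-20558209, between genes, it was -0.785, with 6.31 and 7.06 CPM in KO_NE, against 8.55 and 10.6 CPM in wt_NE, and 21.6 and 19.2 CPM in ifKO, against 19.3 and 16.4 CPM in ifwt. This region came nearest to the chromosome 9 block without being counted in it, with a correlation of 0.929 to its profile. At Gad1 the difference was -0.591, with a log2 change of -0.49 in KO_NE and 0.10 in ifKO. The adjusted p-values from edgeR were 0.0417, 0.0460 and 0.0225, and ranged over the other fits from 0.00687 to 0.616, from 0.00904 to 0.649 and from 0.000657 to 1.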

How the results depend on the processing

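The calls after novelty depend on the libraries fitted and on the member rule. Against 39 members called lower in KO_NE, 84 were called with only the 4 novelty libraries in the fit, 7 of 17 with a ratio of at most 0.7 and 17 of 72 with at least 16 CPM in wt_HC; the last 2 rules test fewer regions, and the cause of the first was not tested. Leaving out 1 library at a time gave 10 (without wt_NE library 2) to 60 (without ifKO library 2). The median log2 change in KO_NE was -0.36 with a ratio of at most 0.7 and -0.14 to -0.34 with 1 library left out, and stayed below 0 throughout. In ifKO, 0 members were called lower with a ratio of at most 0.7 and 1 to 3 with 1 library left out; 1 was called higher among the 202 members chosen on TMM-scaled CPM, and 0 to 35 with 1 library left out. A different effect between the lines was called at 0 members with file totals, with offsets over region strength and in DESeq2, at 1 with a ratio of at most 0.7, at 1 with at least 16 CPM, at 5 on TMM-scaled CPM, and at 0 to 40 with 1 library left out. Without the regions that track the chromosome 9 block, an alternative added after seeing the data, the counts were 39, 1 and 3. Requiring 50% overlap left 0 members with a Kdm5C region. The library numbers do not pair the pools, with deviations correlating at 0.0095 and -0.0351; the replicate block gave 40 members lower in KO_NE, 1 lower in ifKO and 3 with a different effect, 2 of them shared with the fit without it: Gm35479 was not called under the block (edgeR adjusted p = 0.0689) and Gm40352 was (0.0296, against 0.0874). It changed no count of calls by over 1.5 times. Among the named regions 1335 of the alternative values kept their call, 41 lost and 34 gained it, and none reversed. The small peaks rest on few counts, and 2 pools a group limit what can be called.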
